A study of Homo sapiens with 5 samples.

Results

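A group of 10 genes for matrix proteoglycans and their link protein was examined for TEAD4 binding in LX-2 cells, a human hepatic stellate cell (HSC) line: DCN, LUM, BGN, FMOD, ASPN, OGN and PRELP (small leucine-rich proteoglycans, SLRPs), VCAN and ACAN (large aggregating proteoglycans) and HAPLN1 (link protein). They are 10 of the 20046 protein-coding genes of GENCODE release 44. They were chosen by name, and a TEAD4 peak was counted for a gene when its summit lay inside the gene body or at most 50 kb from any of its annotated transcription start sites (TSSs). By this rule 7 of the 10 genes had a peak (70.0%, Wilson 95% interval 39.7 to 89.2), against 56.1% of all protein-coding genes. Together they had 14 of the 21113 peaks in the list, and none of the 14 was counted for more than 1 of the 10 genes.

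The study asked how O-GlcNAcylation, the attachment of a single sugar to nuclear and cytoplasmic proteins, acts on the transcription program of myofibroblastic HSCs, and TEAD4 was one of the transcription factors it followed. All samples of this experiment were LX-2 cells given the solvent DMSO, so no treatment was compared. TEAD4 was immunoprecipitated in 3 replicates, with 2 input samples, and the authors derived 1 peak list from replicates 1 and 3 together. The list gives 1 value per peak and none per replicate, so no spread between replicates stands behind any signal value here, and the depth of the libraries is unknown. LX-2 is a single immortalized line kept in culture, and its identity could not be checked against marker genes because a peak list holds no expression values.

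SLRPs are secreted proteins that bind collagen and shape the assembly of its fibrils, and some of them, decorin, biglycan, fibromodulin and asporin among them, also bind TGF-beta. Versican and aggrecan are much larger proteins that carry many chondroitin sulfate chains and bind hyaluronan, and link protein holds that bond in place. In a fibrotic liver, activated HSCs are a main source of this matrix. TEAD factors bind DNA themselves and switch on genes with YAP1 or TAZ as coactivators, often from enhancers far from a TSS and often near AP-1 factors.

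All 3 genes of the large proteoglycan and link protein class had peaks, 8 in number (VCAN 3, ACAN 3, HAPLN1 2), with a Wilson 95% interval of 43.9 to 100% for the share of genes. Of the 7 SLRP genes 4 had a peak (57.1%, interval 25 to 84.2, beside the 56.1% of all protein-coding genes), 6 peaks in number (FMOD 2, PRELP 2, BGN 1, ASPN 1). DCN, LUM and OGN had none. The intervals of the classes overlap, and the windows searched were longer for the large proteoglycan and link protein genes, 147312 to 181745 bp, than for the SLRP genes, 100001 to 137010 bp. With entries that share bases merged, the classes had 6 and 5 peaks. At least 3 peaks were found for 2 of the 10 genes, VCAN and ACAN, against 19.4% of protein-coding genes. Both reached 3 only because an overlapping pair of entries was counted as separate peaks. The median was 1.5 peaks per gene here and 1 over all protein-coding genes, in search windows of about the same length (median 111000 bp and 112000 bp). Overlapping entries were counted separately in both medians, and merging them would lower the counts of FMOD, VCAN and ACAN. The interval given above for the share of the 10 genes with a peak includes the share of all protein-coding genes.

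None of the 14 summits lay at a promoter. No gene of the 10 had a summit at most 2.5 kb from its own TSS, against 16.6% of protein-coding genes, and no summit was that close to a TSS of any protein-coding or lncRNA gene, against 24.4% of the peaks in the list. The closest was the stronger FMOD peak, 2689 bp upstream of the nearest FMOD TSS, which is just outside that limit. Of the 14, 8 were upstream of their gene, 4 were in introns (VCAN 2, ACAN 2) and 2 were downstream of the gene (ACAN 1, HAPLN1 1). The median distance to the nearest TSS of the gene was 18000 bp. The farthest summit that was counted was 45269 bp from an ACAN TSS, and the nearest one left out was 56256 bp upstream of ASPN.

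The signal value is the peak caller's measure of enrichment as deposited, and what it is relative to is not given in the sources used here, so it is used only to rank peaks within the list. The 14 peaks ran from 11.4 to 215.9 with a median of 64.7 (95% interval from the order of the values, 36.5 to 125), beside a median of 68.1 over the list. That order depended on how overlapping entries were counted: with entries that share bases merged, keeping the stronger, the median was 102 over 11 peaks, beside 72.4 over the merged list. Of the 14, 6 were above that median, and they belonged to 5 genes (VCAN, BGN, HAPLN1, PRELP and FMOD), against 38.8% of protein-coding genes with such a peak. The median was 104.0 for the 6 SLRP peaks and 52.4 for the 8 peaks of VCAN, ACAN and HAPLN1, where the latter include the weaker entries of 2 overlapping pairs, 36.5 and 12.3, and the former 1, 11.4. In both classes the values ran from near the bottom of the list (11.4 and 12.3) to above its upper quartile (165.6 and 215.9). The highest IDR score, 1000, was given to 11 of the 14 peaks, against 76.1% of the list. IDR, the irreproducible discovery rate, measures how well peak ranks repeat between the replicates.

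The DNA around the summits was then searched on both strands, up to 100 bp to each side, for the TEAD motif ACATTCC. It was present in 4 of the 14 peaks (28.6%, Wilson 95% interval 11.7 to 54.6), against 23.0% of the list, and these 4 peaks belonged to 4 genes, BGN, PRELP, ACAN and VCAN. Among the 9 peaks in the gene body or within 25 kb of a TSS the share was 11.1%, and among the 7 within 10 kb it was 14.3%. Both are below that of the list. Both rest on the ACAN peak alone, so the peaks are too few to show that the share depends on the reach. The signal values of the 4 peaks with the motif were 165.6, 111.2, 64.8 and 37.7, so the motif was found in peaks both above and below the list's median. The shorter core CATTCC was present in 7 of the 14, against 46.8% of the list. The 4 stretches with the full motif are shown because they place the letters TEAD factors are known to bind next to the summits at these genes. They are read from the plus strand of hg38, and capitals mark the core of the TEAD motif in the BGN stretch and the searched motifs in the others.
BGN, chrX:153460091-153460270: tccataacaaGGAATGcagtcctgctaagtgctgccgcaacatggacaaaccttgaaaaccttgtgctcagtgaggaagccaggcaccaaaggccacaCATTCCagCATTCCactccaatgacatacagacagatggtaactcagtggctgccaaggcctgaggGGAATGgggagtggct
PRELP, chr1:203440878-203440940: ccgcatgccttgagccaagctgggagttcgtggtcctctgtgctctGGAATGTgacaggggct
ACAN, chr15:88810574-88810650: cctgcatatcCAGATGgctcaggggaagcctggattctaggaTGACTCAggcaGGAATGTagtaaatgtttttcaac
VCAN, chr5:83430576-83430612: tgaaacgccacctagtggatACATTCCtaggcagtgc
The motif centre was 4 bp from the summit at BGN, 10 bp at ACAN, 13 bp at VCAN and 39 bp at PRELP. The BGN stretch holds 4 copies of the core, 2 on each strand, and no other peak of the 14 held more than 1. Across the list, at least 2 copies were found in 8.84% of peaks and at least 4 in 35 of the 21113 (0.166%). A match of letters is a description of the sequence, not a measured site.

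BGN encodes biglycan, an SLRP that carries chondroitin or dermatan sulfate chains. Its peak, chrX:153460068-153460329, had the second highest signal value of the 14, 165.6, and 86.9% of the list was lower. The summit was 34793 bp upstream of the BGN TSS, inside intron 4 of HAUS7, a gene for a subunit of the augmin complex of the mitotic spindle, and in an intron of TREX2, which encodes a DNA exonuclease. The nearest protein-coding TSS was that of HAUS7, at 2996 bp, so BGN was not the nearest gene. No other summit lay within 50 kb of BGN, and the next peak along the chromosome was 139204 bp away.

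FMOD and PRELP are neighbours on chromosome 1. Fibromodulin, the FMOD product, binds fibrillar collagens, and PRELP links basement membranes to the collagen beneath them. FMOD had 2 overlapping peak entries whose summits were 201 bp apart, at chr1:203354347-203354508 with a signal value of 102.1 and at chr1:203354426-203354869 with 11.4. The second was lower than all but 2.35% of the list and its q-value was 0.224. Both lay upstream, at 2689 bp and 2890 bp. PRELP had 2 separate peaks at nearly equal signal values, 105.9 at 20708 bp upstream (chr1:203455009-203455175) and 111.2 at 34918 bp upstream (chr1:203440801-203440998). The nearer one also counted for OPTC, the opticin gene, from whose TSS it was 39055 bp away. Neither FMOD entry held the TEAD motif. The stronger one held the E-box CAGATG, 22 bp from the summit, and is shown as the stronger entry of a gene with no TEAD motif in either (capitals, E-box).
FMOD, chr1:203354412-203354457: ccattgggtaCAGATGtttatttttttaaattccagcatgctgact

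ASPN and OGN lie with OMD and ECM2 in a row of SLRP genes on chromosome 9. Asporin, the ASPN product, has a run of aspartate residues and binds collagen and TGF-beta, and OGN encodes osteoglycin, also called mimecan. ASPN had 1 peak, chr9:92506310-92506753, with a signal value of 58.0, higher than 40.1% of the list. Its summit was 24026 bp upstream of ASPN, inside intron 6 of ECM2 and intron 5 of CENPP, and it was counted for ECM2 as well. OGN had no peak within 50 kb. The nearest was 99465 bp from an OGN TSS, had a signal value of 41.3 and lay 2 bp from the TSS of IARS1, an isoleucyl-tRNA synthetase gene. Between that summit and the ASPN peak, 212845 bp held no summit and contained NOL8, OGN, OMD and ASPN, and 50.7% of protein-coding genes lay in a stretch at least as long. In the ASPN peak the E-box and the AP-1 motif TGACTCA, here read as TGAGTCA, overlapped (capitals).
ASPN, chr9:92506480-92506542: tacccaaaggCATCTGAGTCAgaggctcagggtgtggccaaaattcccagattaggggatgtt

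DCN and LUM, the genes of decorin and lumican, were the genes farthest from any peak. Decorin wraps collagen fibrils and limits their width, and lumican orders fibrils in the cornea and other tissues. The nearest summit was 207561 bp from a DCN TSS and 172792 bp from a LUM TSS, and it was the same peak, chr12:90938425-90938868, with a signal value of 70.8, inside the body of CCER1. The next peak beyond it, on the far side from both genes, had a signal value of 388. Both genes lay with EPYC and KERA, which are SLRP genes too, in a stretch of 840496 bp without a summit. Of all protein-coding genes, 2684 (13.4%) lay in a stretch as long or longer. An absent peak says that no peak was listed there from replicates 1 and 3. Whether weaker enrichment was present could not be seen from the list.

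VCAN and HAPLN1 are neighbours on chromosome 5, and their products act together on hyaluronan. VCAN had the peak with the highest signal value of the 14, chr5:83568198-83568499 with 215.9, above 92.2% of the list. It lay in intron 12 of VCAN and in intron 1 of the antisense lncRNA gene VCAN-AS1, 14995 bp downstream of the nearest VCAN TSS and 96613 bp downstream of that of the canonical transcript. An overlapping entry with its summit 200 bp away, chr5:83568335-83568778, had a signal value of 36.5. The third VCAN peak, chr5:83430364-83430807, was 41032 bp upstream with a signal value of 37.7, and its IDR score, 892, was the lowest of the 14. This weak upstream peak held the TEAD motif printed above and the strong intronic peak did not, although it held 1 copy of the core CATTCC. The strong peak also held the RUNX motif TGTGGTT, read here as AACCACA (capitals), 8 bp from its summit.
VCAN, chr5:83568347-83568378: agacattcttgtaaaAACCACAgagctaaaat

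HAPLN1 had a peak 4288 bp upstream of its TSS, chr5:83724921-83725364, with a signal value of 64.7, and a stronger one downstream of the gene, chr5:83632995-83633210, with 124.7. The latter lay between the genes, 4702 bp past the end of HAPLN1 and 50800 bp past the end of VCAN. Its distance to the nearest TSS was 40441 bp for HAPLN1 and 79741 bp for VCAN, which put it outside the limit for VCAN. From the TSSs of the canonical transcripts this peak was 87752 bp (HAPLN1) and 161.359 kb (VCAN) away, so it was counted for HAPLN1 only through another TSS. It is shown because it is the strongest HAPLN1 peak and held none of the 4 searched motifs, only 1 copy of the core CATTCC, in lower case here.
HAPLN1, chr5:83633073-83633133: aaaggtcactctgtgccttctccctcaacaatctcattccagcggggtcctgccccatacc

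ACAN encodes aggrecan, best known as the main proteoglycan of cartilage. It had 3 peaks, none above the median of the list. A pair of overlapping entries lay in intron 1, at chr15:88810418-88810861 with a signal value of 64.8 and at chr15:88810628-88811071 with 12.3, and their summits were 6881 bp and 7091 bp downstream of the nearest TSS. The weaker entry was lower than all but 2.55% of the list and had a q-value of 0.155. The third peak, chr15:88918760-88919203, had a signal value of 40.2 and lay beyond the end of the gene. Its nearest protein-coding TSS was that of MFGE8, 5514 bp away, and it also counted for HAPLN3, another link protein gene. The stronger intronic peak was the only 1 of the 14 with both a TEAD and an AP-1 motif, 4 bases apart in the ACAN stretch printed above. Across the list 4.49% of peaks held both motifs, and 189 peaks (0.895%) held them at most 10 bases apart.

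Other motifs were searched in the same windows. The AP-1 motif was present in 3 of the 14 peaks (21.4%, Wilson 95% interval 7.57 to 47.6), against 25.4% of the list, and these were the ASPN peak and 2 ACAN peaks. All 3 had signal values below the median of the list. The RUNX motif was also present in 3 peaks (1 of VCAN and 2 of ACAN, 21.4%, interval 7.57 to 47.6), against 9.53%. Of these ACAN peaks, 1 was the weaker entry of the overlapping pair, with a signal value of 12.3 and a q-value of 0.155. The intervals treat overlapping entries as separate peaks. The E-box CAGATG was present in 6 peaks of 5 genes (42.9%, interval 21.4 to 67.4), against 16.7%: BGN, FMOD, ASPN, HAPLN1 and 2 peaks of ACAN. A TEAD or AP-1 motif was present in 6 of the 14 (42.9%), against 43.9%. The intervals of the TEAD, AP-1 and RUNX shares include the share of the list. That of the E-box does not, but it is 1 of 4 motifs searched in peaks of genes chosen with results of these data known, and it is given as a description. In the RefSeq promoter windows (GRCh38, 250 bases before to 50 after the start) 8 of the 10 genes were matched, all but DCN and LUM. None of the 8 held any of the 4 motifs, which were found in 3.48% (TEAD), 4.92% (AP-1), 4.28% (RUNX) and 14.8% (E-box) of 27305 promoters.

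Genes with related functions were counted by the same rule. Over 6 lists together 43 of 65 had a peak (66.2%), beside the 56.1% of all protein-coding genes. Of the other SLRP genes 7 of 11 had a peak (63.6%), with the most at PODN, the podocan gene, and TSKU, the tsukushi gene, at 4 each. Of the other hyalectan and link protein genes 3 of 5 had a peak, and BCAN and HAPLN2 shared theirs (signal value 101.8). Of the enzymes that build chondroitin and dermatan sulfate chains 13 of 21 had a peak (61.9%), led by DSE, an epimerase that makes dermatan sulfate, with 7 and by the sulfotransferase gene CHST13 with 5. Genes for making, cutting and binding hyaluronan had peaks in 8 of 9 cases (88.9%, Wilson 95% interval 56.5 to 98.0), with 6 each at CEMIP and CEMIP2, whose products take part in hyaluronan breakdown. The hyaluronan list had 27 distinct peaks, some of them counted for more than 1 gene, so its genes are not independent as the interval assumes. Heparan sulfate proteoglycan genes had peaks in 11 of 13 cases (84.6%, interval 57.8 to 95.7), with 10 each at SDC4, a syndecan, and GPC6, a glypican. Longer genes were searched over longer windows, and GPC6 is 1181214 bp long and SDC4 23137 bp, and 1 SDC4 peak reached a signal value of 640.2. Among 6 ADAMTS proteases that cut hyalectans, ADAMTS4 alone had a peak (16.7%, interval 3.01 to 56.4), with a signal value of 80.8. The nearest summit was 54066 bp from a TSS for ADAMTS1, 55406 bp for ADAMTS5, 61265 bp for ADAMTS9 and 64881 bp for ADAMTS15. These distances are not far beyond the limit for counting a peak, so the low share of this list depends on that limit. For ADAMTS20 the nearest summit was 154231 bp away.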

How the data were processed

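TEAD4 ChIP-seq was made from LX-2 cells with single-end reads, which the authors mapped to hg38 with Chromap. With the ENCODE IDR pipeline they found replicate 2 too discordant and took peaks from replicates 1 and 3. The deposited list has 10 columns. Its score is the authors' scaled IDR, its signal value and −log10 q-value are per peak as deposited, and the last column places the summit. What each column holds was inferred from its layout and values. The peak caller is not given in the sources used here. No value per sample was available in the list, so depth is unknown and intervals cover counting error only.

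Summits were assigned to genes of GENCODE release 44, and motifs were counted in hg38, with Python 3.11.15, numpy 2.4.6, pandas 2.3.3 and scipy 1.17.1. The code was tested on simulated data. No significance test was run. All 10 genes were described in full, and of each related list the genes with the most peaks and those sharing a peak with 1 of the 10 were named. Members, lists and motifs were chosen with earlier results of these data known. Alternatives changed the peak set, distance, TSS annotation and motif window. Input samples were not used here.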

Additional observations from a re-analysis of the deposited data

How the results depend on the processing

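In all, 80 values were recomputed under 18 other settings. With a reach of 10 kb, 4 genes had 7 peaks, and 34.0% of protein-coding genes had a peak. At 25 kb 6 genes had 9 peaks, 11.1% of them with the TEAD motif (43.6% of protein-coding genes), and at 100 kb 8 genes had a peak (71.9%). In gene bodies alone 2 genes had 4 peaks (25%). Above the median signal value 5 genes had 6 peaks, 0% of them with the AP-1 motif (38.8% of protein-coding genes). At the highest IDR score 7 genes had a peak (48.7%), as they did without gene bodies (55.2%) and with canonical TSSs (53.1%). With canonical TSSs, however, 12 of the 14 peaks remained. The third ACAN peak and the stronger HAPLN1 peak, 115546 bp and 87752 bp from those TSSs, were no longer counted. Read backwards, the TEAD motif was in 0% of the 14 peaks (2.0% of the list) and the AP-1 motif in 7.14% (4.35%).

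The median signal value of 64.7 was 102 at the highest IDR score (84.5 over such peaks of the list), 102 with entries that share bases merged and 118 for peaks above the list's median, which that filter raises by construction. The TEAD motif share of 28.6% was 14.3% at 10 kb. No paired analysis was possible because replicates 1 and 3 stand together in each value, which also left no replicate to omit in turn. Depth per library is unknown, so a missing peak cannot be told apart from one too weak to be listed.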

Other observations

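Between 50 and 100 kb from a TSS there were 5 further pairings of a gene with a peak. The peaks of 2 of them were already counted for a neighbour, namely the PRELP peak of 111.2 for FMOD and the HAPLN1 peak of 124.7 for VCAN. BGN had a peak with a signal value of 93.6, 252 bp from the TSS of CCNQ, a cyclin gene. ASPN had one of 122.2 that lay 2107 bp from the TSS of ECM2, and OGN had the peak of 41.3 at IARS1 described above. With these, 8 of the 10 genes had a peak within 100 kb or in the gene body, beside 71.9% of all protein-coding genes, and DCN and LUM still had none.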
